A study of Mus musculus with 6 samples.

Results

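The 10 genes described here encode the coreceptors that sit beside the Toll-like receptors (TLRs) and the adaptors and kinases that carry the TLR signal into the cell. They are Cd14, Ly96, Cd180, Ly86, Myd88, Tirap, Irak1, Irak2, Irak3 and Irak4, listed by symbol and matched to 10 of the 55421 genes in the raw count table. All 10 passed the filter on low counts and were among the 14469 genes tested. RNA-seq was performed in tumor-associated macrophages (TAMs), gated as live CD45+CD11b+F4/80+Ly6G- cells, from M17 (MC17-51) fibrosarcomas collected on day 15, with 3 libraries from Pdcd1f/fLysMcre mice and 3 from Pdcd1f/f control mice. Mice were 8 to 12 weeks old at tumor implantation. Both groups carried the floxed Pdcd1 allele (Pdcd1 encodes the inhibitory receptor PD-1), and the Pdcd1f/fLysMcre mice carried in addition Cre recombinase in the lysozyme gene Lyz2, which is active in macrophages, monocytes and neutrophils. A control with LysMcre and no floxed allele was not analysed here, so that effects of Cre, of the changed Lyz2 gene and of PD-1 loss cannot be told apart. How many mice gave each library is not given in the sources used here, and p-values measure the spread between these libraries.

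TLRs are surface and endosomal receptors for microbial products. CD14 hands lipopolysaccharide to TLR4, which binds it together with MD-2, the product of Ly96. CD180 (RP105) is a TLR-like protein without a signaling TIR domain, and it reaches the surface together with MD-1, the product of Ly86, as TLR4 does with MD-2. In macrophages the CD180–MD-1 pair is known to restrain TLR4, whereas in B cells it promotes activation. Most TLRs and the IL-1 receptor family recruit MyD88, in some cases through the bridging adaptor TIRAP, and MyD88 assembles the kinases IRAK4, IRAK1 and IRAK2, while IRAK3 (IRAK-M) acts as an inhibitor of that complex.

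Library totals ranged from 41833823 to 51417209 counts, and each of the 10 genes had at least 514 counts in every library. Lyz2 was 207974 to 225226 normalized counts in Pdcd1f/f TAMs, against 405 to 465 in Pdcd1f/fLysMcre TAMs, which matches the labelled genotypes for a Cre placed in that gene. Pdcd1 had only 7 to 16 counts in each library, with overlapping groups, and these counts per gene do not show the deletion. All 6 libraries were high in macrophage markers (summed normalized counts of 6 genes, 206442 to 221023 against 187092 to 189819), of which Adgre1 and Csf1r were lower in Pdcd1f/fLysMcre TAMs and the other 4 did not pass the test. Across 11549 genes, GC content was compared with the deviation of each library's log2 CPM from the mean of its own genotype. Spearman's rho was -0.719 in Pdcd1f/f replicate 1 and -0.645 in Pdcd1f/fLysMcre replicate 2, against 0.168 to 0.659 in the other 4 libraries. Since deviations from a shared mean balance within a genotype, the opposite sign of the other 4 is partly fixed by this centering. The sign alone therefore does not show which libraries are unusual. Pdcd1f/f replicate 1 and Pdcd1f/fLysMcre replicate 2 are called the libraries of opposite GC trend, and results are given without them where they matter. Xist was 17318 to 26511 normalized counts in Pdcd1f/f TAMs, against 8530 to 13137 in Pdcd1f/fLysMcre TAMs, and the sum of 4 Y-linked genes (Uty, Kdm5d, Eif2s3y and Ddx3y) was 1545 to 1914 and 6267 to 7233, so that genotype and the sex make-up of the libraries cannot be told apart.

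Of the 10 genes, Cd180 was higher and Ly86, which encodes its partner MD-1, was lower in TAMs from Pdcd1f/fLysMcre mice than in TAMs from Pdcd1f/f mice. The other 8 did not pass the test (adjusted p from 0.0761 for Irak3 to 0.820 for Ly96, quasi-likelihood test of edgeR, Benjamini-Hochberg adjusted over all genes tested). Thus 1 gene rose and 1 fell, beside 2.42% of all genes tested that rose, 3.01% that fell and 5.43% that changed in either direction. The libraries of the genotypes did not overlap for 4 of the 10 genes, with Cd14, Cd180 and Irak3 higher and Ly86 lower in every Pdcd1f/fLysMcre library. Over all genes tested, 14.1% were higher in every Pdcd1f/fLysMcre library, 13.1% were lower and 27.2% did not overlap in either direction. The median log2 fold change of the 10 genes was 0.07, and 6 of the 10 were above 0, beside a median of -0.0026 over all genes tested. DESeq2 called 2 of the 10 higher and 1 lower, beside 6.18% and 6.9% of the genes it gave an adjusted p. At an unadjusted p under 0.05, edgeR had 3 of the 10 higher and 1 lower, beside 12.3% and 11.9% of all genes tested.

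**Figure D1:**
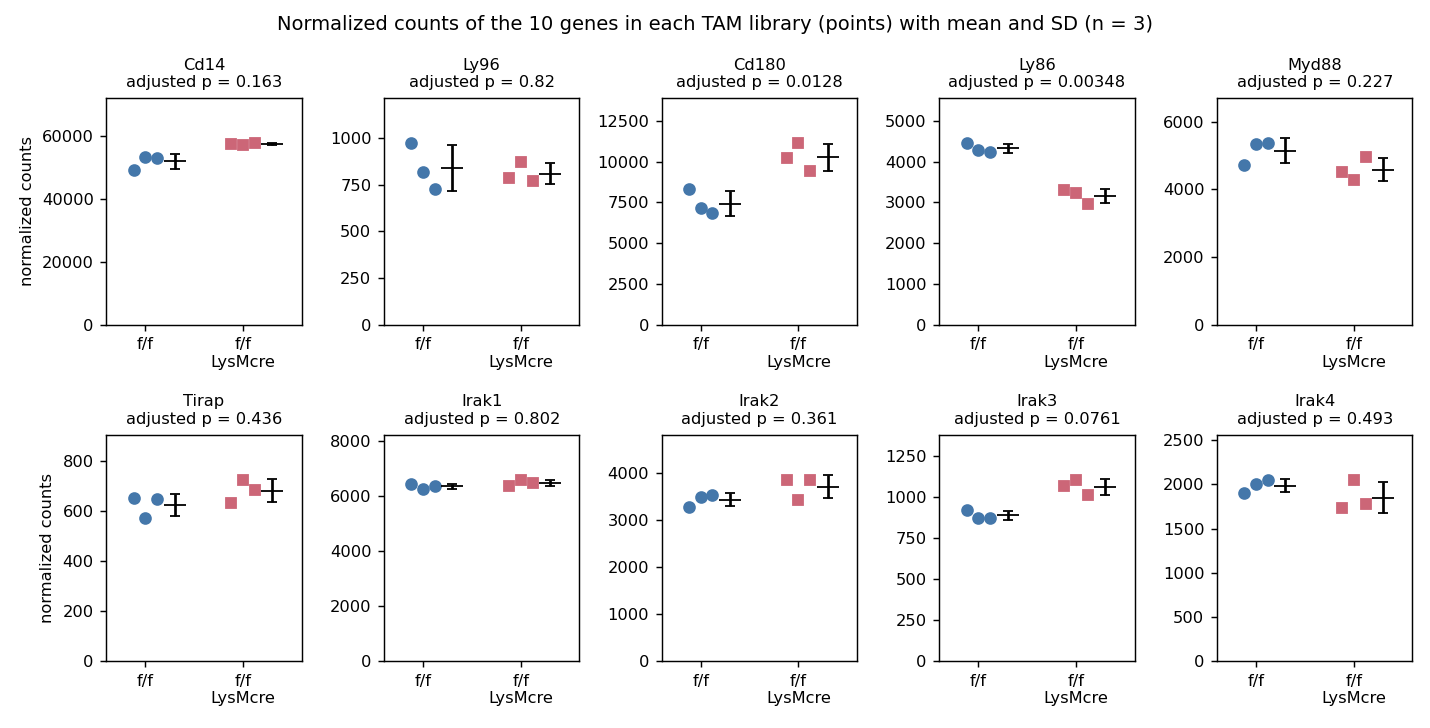
Normalized counts of each gene (y axis, from 0, with its own scale) in the 3 Pdcd1f/f libraries (circles) and the 3 Pdcd1f/fLysMcre libraries (squares), with the mean and SD beside them and the adjusted p of edgeR's quasi-likelihood test above. The points separate most clearly for Cd180, at 6817 to 8295 against 9418 to 11116, and for Ly86, at 4234 to 4451 against 2965 to 3294.

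Levels of different genes were compared as normalized counts per kb of merged exons. On this scale Cd14 stood far above the rest in the Pdcd1f/f libraries, at 29911 per kb (range 28419 to 30783). Next came Myd88 at 1999 per kb and Cd180 at 1644 per kb, whose ranges over the libraries barely overlapped (1837 to 2083 and 1512 to 1840). Irak1 followed at 1346 per kb and Ly86 at 1191 per kb, with no overlap between them. Ly96 at 821 per kb and Irak2 at 779 per kb had overlapping ranges. The lowest levels were those of Irak4 at 395 per kb, Irak3 at 242 per kb and Tirap at 127 per kb, each apart from its neighbors. In the Pdcd1f/fLysMcre libraries Cd180 (2274 per kb) stood above Myd88 (1781 per kb), without overlap. In the same libraries Ly86 (871 per kb), Irak2 (840.4 per kb) and Ly96 (792 per kb) formed a group with overlapping ranges. The order of Cd180 and Myd88 in the Pdcd1f/f libraries depended on the length used, since with the longest annotated transcript of each gene Cd180 was in place 2 and Myd88 in place 3.

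**Figure D2:**
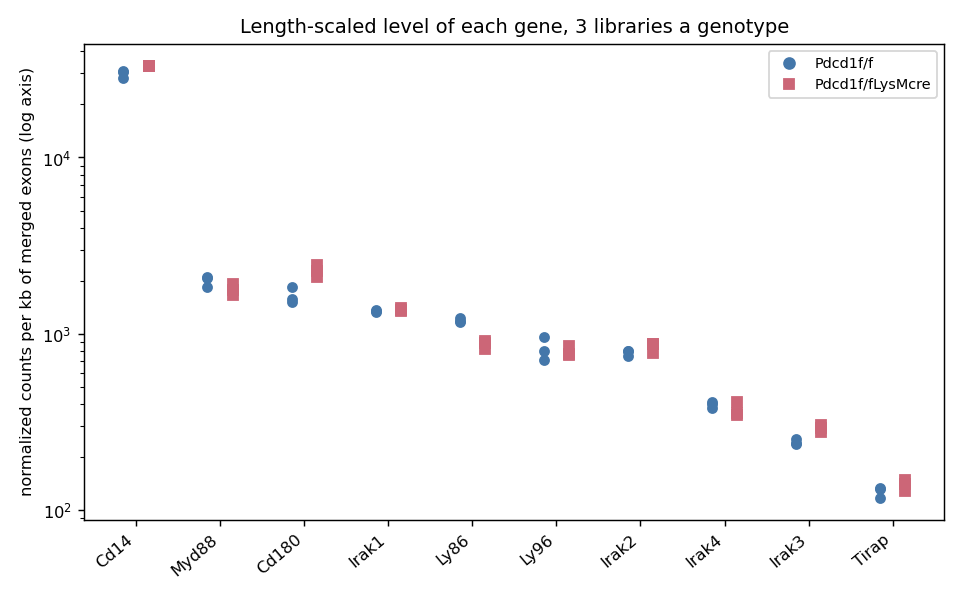
Normalized counts per kb of merged exons (log y axis) of the 10 genes, ordered by their mean in the Pdcd1f/f libraries, with 1 point for each library (circles, Pdcd1f/f; squares, Pdcd1f/fLysMcre). Cd14 lies at 28419 or above in every library and Tirap at 147 or below, and Ly86 moves down to the level of Ly96 and Irak2 in the Pdcd1f/fLysMcre libraries.

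The promoter-side sequences of Cd180 and Ly86 are shown because these partner genes, both on the forward strand of chromosome 13, were the pair that changed, in opposite directions. Each line gives, 5′ to 3′, only the part of a gene's RefSeq window (GRCm38.p6) that lies upstream of its first transcript start in RefSeq or GENCODE, 250 bases at chr13:102693297-102693546 for Cd180 and 113 bases at chr13:37345095-37345207 for Ly86.
Cd180: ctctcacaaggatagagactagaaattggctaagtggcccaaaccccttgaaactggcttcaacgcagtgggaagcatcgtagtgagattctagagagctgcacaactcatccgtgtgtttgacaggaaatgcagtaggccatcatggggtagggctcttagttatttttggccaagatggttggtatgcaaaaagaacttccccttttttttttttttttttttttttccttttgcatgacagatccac
Ly86: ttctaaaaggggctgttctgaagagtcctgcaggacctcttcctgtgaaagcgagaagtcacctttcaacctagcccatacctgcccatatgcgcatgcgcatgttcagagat
In whole windows of 300 bases around RefSeq transcript starts (250 bases before and 50 after), which for both genes run beyond the bases shown, 5 motifs were searched on both strands. None of them occurred anywhere in the windows of Cd180 and Ly86, so no base is in capitals. The motifs were the NF-kB consensus (in 5.14% of 27025 genes with a window), AP-1 as TGANTCA (8.97%), PU.1 as GAGGAA (31.2%), C/EBP as TTGCNNAA (12.2%) and the interferon-stimulated response element (ISRE) as GAAA, any 2 bases and GAAA (3.99%). Among the 8 genes of the group with a window, Myd88 held an ISRE and Irak3 held a PU.1 and a C/EBP match. These matches describe letters in these windows only.

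Among the coreceptors, Cd180 (chr13:102693558-102739629, GRCm38) was 8295, 7132 and 6817 normalized counts in Pdcd1f/f TAMs, against 10220.2, 11116 and 9418 in Pdcd1f/fLysMcre TAMs. Every Pdcd1f/fLysMcre library was above every Pdcd1f/f library, with means of 7414 ± 779 and 10252 ± 849 (SD, n = 3 each). The fitted increase was 1.38-fold (log2 fold change 0.47, 95% interval 0.28 to 0.66, edgeR adjusted p = 0.0128). It was past the threshold in 3 of 6 analyses with 1 library left out, with adjusted p = 0.0780 without Pdcd1f/f replicate 2, 0.0726 without Pdcd1f/fLysMcre replicate 1 and 0.0551 without Pdcd1f/fLysMcre replicate 2, and log2 fold changes between 0.41 and 0.55 over all 6. The analyses that lost the call had 1.51%, 1.51% and 2.5% of all genes tested past the threshold, and those that kept it 2.38% to 21.6%. Cd180 was past the threshold in all 11 other alternatives. The two-sided exact permutation test gave p = 0.1, the smallest that 3 libraries against 3 allow.

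Ly86 (chr13:37345208-37419036), which encodes the secreted MD-1 protein that binds CD180, was 4451, 4287 and 4234 normalized counts in Pdcd1f/f TAMs, against 3294, 3232 and 2965 in Pdcd1f/fLysMcre TAMs. The lowest control library was well above the highest Pdcd1f/fLysMcre library, and the means were 4324 ± 113 and 3164 ± 175 (SD, n = 3 each). In the edgeR fit Ly86 fell by 26.7% (log2 fold change -0.45, 95% interval -0.59 to -0.30, edgeR adjusted p = 0.00348; two-sided exact permutation p = 0.1). The decrease held with each library left out (log2 fold change -0.48 to -0.41, highest adjusted p = 0.0274) and in all 11 other alternatives. Of the 6 macrophage markers 2 were also lower, Csf1r, the receptor for the macrophage growth factor CSF-1 (adjusted p = 0.0308), and Adgre1, which encodes the F4/80 antigen used in the sort (adjusted p = 0.00496), while the other 4 did not pass, with log2 fold changes of -0.21 for Fcgr1, -0.16 for Itgam, -0.06 for Cd68 and 0.11 for Ptprc. In bulk libraries fewer cells of one type and less RNA per cell cannot be told apart, and the part of either in the decrease of Ly86 was not tested.

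Since Cd180 and Ly86 encode parts of one surface complex, their ratio was taken within each library as a description. It was chosen after their values had been seen and follows from the changes of both genes, so it was not tested. On the scale per kb, the Cd180 to Ly86 ratio was 1.501, 1.340 and 1.297 in Pdcd1f/f TAMs, against 2.499, 2.770 and 2.558 in Pdcd1f/fLysMcre TAMs. The means were 1.38 ± 0.11 and 2.61 ± 0.14 (SD, n = 3 each), a difference of 0.92 on the log2 scale. B cells also express both genes. Of their markers, Cd79a was at 0 to 2 counts, Pax5 at 0 and Ms4a1 at 2 to 20 counts in each library. Cd79b was 117 to 177 counts, and every Pdcd1f/fLysMcre library was below every Pdcd1f/f library (log2 fold change -0.52, edgeR adjusted p = 0.0670). The summed B cell markers were 169 to 209 normalized counts in Pdcd1f/f TAMs, against 120.0 to 149 in Pdcd1f/fLysMcre TAMs. The part of B cells in the values of Cd180 and Ly86 was not tested.

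**Figure D3:**
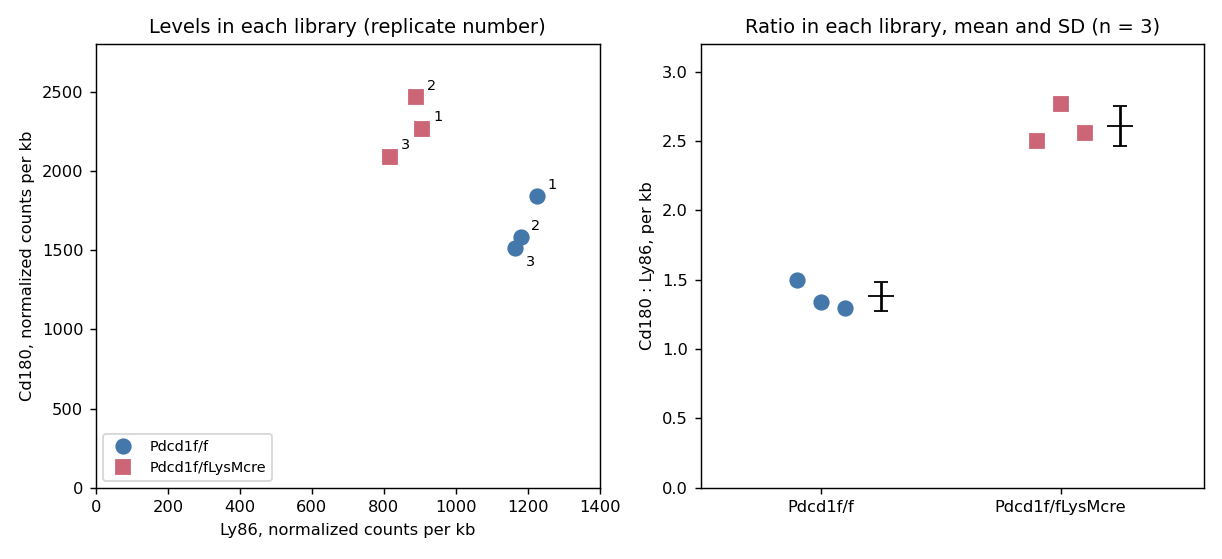
Left, normalized counts per kb of Cd180 (y axis) against Ly86 (x axis), with 1 point for each library and its replicate number. Right, the ratio of Cd180 to Ly86 in each library with the mean and SD (n = 3). The Pdcd1f/f libraries (circles) have ratios of 1.297 to 1.501 and the Pdcd1f/fLysMcre libraries (squares) of 2.499 to 2.770.

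The coreceptors of TLR4 itself did not pass the test. Cd14, the most abundant of the 10 genes, was 49221, 53316 and 52881 normalized counts in Pdcd1f/f TAMs, against 57192, 57131 and 57573 in Pdcd1f/fLysMcre TAMs. The groups did not overlap, but the fitted increase was 10.8% (edgeR log2 fold change 0.15, 95% interval 0.02 to 0.28) and the adjusted p was 0.163. With GC and length offsets (a loess correction within each library) Cd14 passed the threshold, with a log2 fold change of 0.22 and adjusted p = 4.9e-04, when 18.5% of all genes tested passed. Ly96 was 971, 818 and 725 normalized counts in Pdcd1f/f TAMs, against 784, 873 and 769 in Pdcd1f/fLysMcre TAMs, which overlapped. Its log2 fold change of -0.05 had a 95% interval of -0.30 to 0.20, wide enough to hold changes of either sign, and it turned to 0.06 without Pdcd1f/f replicate 1. Tlr4, the receptor that Ly96 and Cd14 serve, had a log2 fold change of -0.07 (adjusted p = 0.652), and the Tlr4 to Ly96 ratio per kb overlapped between the genotypes (0.720 ± 0.097 and 0.702 ± 0.040, SD, n = 3 each). The Cd14 to Ly96 ratio per kb overlapped as well (37.1 ± 6.7 and 41.9 ± 3.0). Whether these pairs differ in their change from Cd180 and Ly86 was not tested.

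Neither adaptor passed the test. Myd88 was 4732, 5347 and 5367 normalized counts in Pdcd1f/f TAMs, against 4530.0, 4282 and 4954 in Pdcd1f/fLysMcre TAMs. Pdcd1f/f replicate 1 lay among the Pdcd1f/fLysMcre libraries, and the log2 fold change was -0.16 (95% interval -0.34 to 0.01, adjusted p = 0.227). Without that library it was -0.23 with adjusted p = 0.0386, when 21.6% of all genes tested passed. With GC and length offsets it was -0.07 with adjusted p = 0.267. Tirap was 652, 574 and 651 normalized counts in Pdcd1f/f TAMs, against 634, 725 and 686 in Pdcd1f/fLysMcre TAMs, with a log2 fold change of 0.13 (adjusted p = 0.436).

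The kinases IRAK1, IRAK2 and IRAK4 did not pass the test. Irak1, on the X chromosome, was 6262 to 6429 normalized counts in Pdcd1f/f TAMs, against 6351 to 6573 in Pdcd1f/fLysMcre TAMs, and its log2 fold change of 0.03 had a narrow 95% interval of -0.10 to 0.15. Of the 461 X-linked genes tested, 5 rose and 11 fell (3.47%, beside 5.46% of autosomal genes). Irak2 was 3278, 3498 and 3532 normalized counts against 3852, 3424 and 3847, with Pdcd1f/fLysMcre replicate 2 inside the control range (log2 fold change 0.11, adjusted p = 0.361). With GC and length offsets Irak2 was at 0.20 with adjusted p = 0.00399, when 18.5% of all genes tested passed. Irak4 was 1901, 2001 and 2048 normalized counts against 1730.2, 2050 and 1774 (log2 fold change -0.10, adjusted p = 0.493), and again Pdcd1f/fLysMcre replicate 2 stood apart from the other libraries of its group. Without both libraries of opposite GC trend Irak4 was at -0.21 with adjusted p = 0.0171, when 26.2% of all genes tested passed. With GC and length offsets Irak4 was at -0.09 with adjusted p = 0.376.

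Irak3 (chr10:120141648-120202130), the inhibitory member of the IRAK family, was 924, 871 and 876 normalized counts in Pdcd1f/f TAMs, against 1069, 1106 and 1015 in Pdcd1f/fLysMcre TAMs. Every Pdcd1f/fLysMcre library was above every Pdcd1f/f library (890.4 ± 28.8 and 1063 ± 45.8, SD, n = 3 each), and the increase fitted by edgeR was 19.5%. The log2 fold change was 0.26 (95% interval 0.09 to 0.43) and the adjusted p of 0.0761 missed the threshold (exact permutation p = 0.1). It passed in DESeq2, with adjusted p = 0.0391, with GC and length offsets at 0.28 with adjusted p = 0.00552, and in 1 of the 6 analyses with 1 library left out, without Pdcd1f/f replicate 1 (adjusted p = 0.0332). Those settings called 13.1%, 18.5% and 21.6% of the genes with an adjusted p. Irak3 lies 2.86 Mb from Lyz2, in which Cre was placed. Of the 86 tested genes within 10 Mb of Lyz2, 7 rose and 2 fell (10.5%, median log2 fold change 0.09), beside 5.43% of all genes tested (median -0.0026) and 8.74% of the 103 tested genes within 10 Mb of Pdcd1, and the part of that position in the Irak3 values was not tested.

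**Figure D4:**
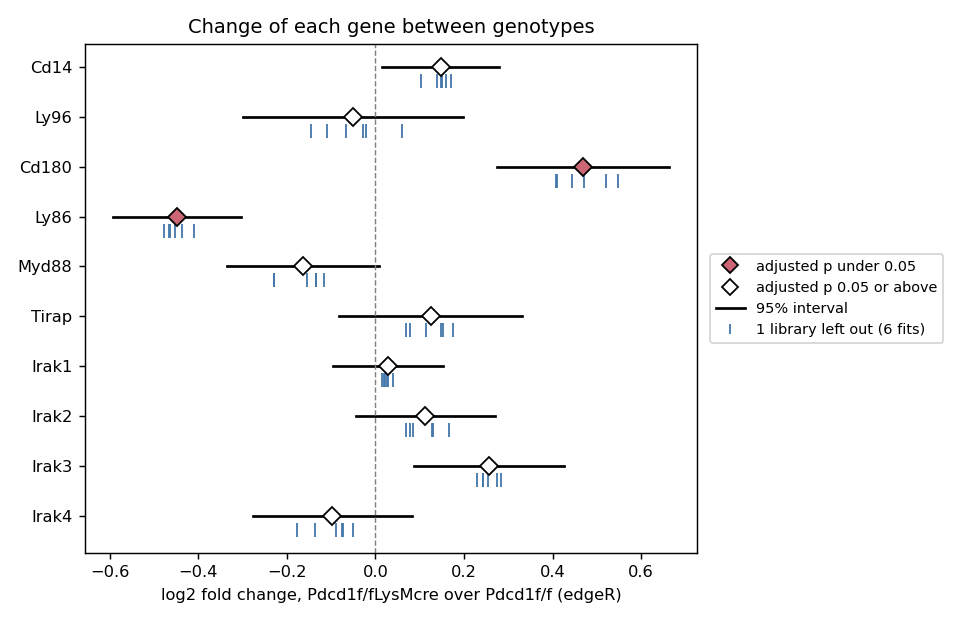
Log2 fold change of each gene (x axis, Pdcd1f/fLysMcre over Pdcd1f/f; diamonds, filled where the adjusted p is under 0.05) with its 95% interval (line) and the values with 1 library left out (ticks below). Cd180 at 0.47 and Ly86 at -0.45 lie on opposite sides of 0 in all 6 of these analyses, whereas the ticks of Ly96 fall on both sides.

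Genes whose profiles over the 6 libraries were most like those of the 2 changed genes were sought by the root-mean-square difference of centered log2 CPM. For Cd180 they were Ell2 (0.026), Tnip3 (0.029) and Osgin2 (0.030), with log2 fold changes of 0.51, 0.43 and 0.42. For Ly86 they included Slc8a1, a sodium-calcium exchanger (0.035), and Ssh2, a cofilin phosphatase (0.037), with log2 fold changes of -0.44 and -0.46. Log2 fold changes near those of Cd180 and Ly86 follow from choosing genes by profile over the same 6 libraries, and are no separate result.

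Of the 10 genes, 5 share exon bases with protein-coding genes on the other strand, and whether reads were counted by strand is not given in the sources used here. For Cd180 the shared 182 bases belong to Mast4, which had only 30 to 56 counts in a library. Irak3 shares 192 bases with Tmbim4 (2393 to 2764 counts, log2 fold change -0.12), Myd88 shares 290 with Acaa1a (2793 to 4064 counts, -0.38, adjusted p = 0.0915), Irak4 shares 395 with Twf1 (6303 to 8589 counts) and Tirap shares 39 with Srpr (5718 to 7094 counts). The part of those partners in the counts of Irak3, Myd88, Irak4 and Tirap was not tested, and Ly86 overlapped no annotated gene.

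The rest of the pathway was read from 6 lists of genes grouped by known role. Among 12 TLR genes, 11 were tested, of which 1 fell and none rose (3.01% and 2.42% over all genes). Of the 11, 1 had a log2 fold change above 0 (median -0.25), beside 7170 of the 14469 genes tested (median -0.0026). The gene that fell was Tlr8, an endosomal receptor of the RNA-sensing group, at 5284 ± 419 and 3486 ± 185 normalized counts (SD, n = 3 each), with a log2 fold change of -0.60 (SE 0.07, adjusted p = 0.00149). Tlr8 lies on the X chromosome, and Xist and the Y-linked genes differed between the genotypes. Of the 461 X-linked genes tested, 3.47% were called, beside 5.46% of autosomal genes. The part of sex make-up in the Tlr8 values was not tested. Tlr2, the surface receptor for bacterial lipoproteins, had the highest value of the list, 0.08 (adjusted p = 0.447). In 7 of the 11 every Pdcd1f/fLysMcre library was below every Pdcd1f/f library (13.1% over all genes), and DESeq2 called 4 lower and 0 higher (6.9% and 6.18% over all genes). Tlr11 was under the filter.

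The 5 tested genes for TLR folding, trafficking and ligand delivery did not pass, with log2 fold changes from -0.51 for Lbp, the lipopolysaccharide-binding protein (31.8 and 22.2 normalized counts, adjusted p = 0.328), to 0.21 for Hsp90b1, the TLR chaperone gp96 (adjusted p = 0.185). At an unadjusted p under 0.05, 1 was higher and 2 were lower (12.3% and 11.9% over all genes), and DESeq2 called 1 lower. Of 7 tested genes of the IL-1 receptor family, 1 fell, Il1rl2, the receptor subunit for IL-36, at 1055 ± 62.9 and 666 ± 27.7 normalized counts (log2 fold change -0.66, SE 0.08, adjusted p = 0.0015). The highest value of that list was 0.42 for Il1rl1, the IL-33 receptor ST2 (adjusted p = 0.0693), and DESeq2 called 1 of the 7 higher and 1 lower (6.18% and 6.9% over all genes, beside 3.01% called lower by edgeR). Bpi and Il18r1 were under the filter.

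Downstream of the IRAKs, the kinase list also holds ubiquitin enzymes and partner subunits. Of its 14 genes 1 fell and none rose, beside 3.01% and 2.42% over all genes. DESeq2 called 2 higher and 2 lower (6.18% and 6.9% over all genes). Groups did not overlap for 2 that were higher and 3 that were lower (14.1% and 13.1% over all genes). The gene that edgeR called was Map3k8, the kinase TPL2 that links the pathway to ERK, at 2441 ± 85.0 and 1988 ± 80.2 normalized counts (log2 fold change -0.29, SE 0.07, adjusted p = 0.0327). The highest value was 0.24 for Chuk, the IKK-alpha kinase (adjusted p = 0.0732), and the lowest was -0.94 for the low-count Peli3 (31.8 and 16.5 normalized counts, adjusted p = 0.138). None of the 7 genes of the TRIF branch, which serves TLR3 and TLR4 without MyD88, passed, with values from -0.16 for Ticam2 (adjusted p = 0.475) to 0.19 for Traf3 (adjusted p = 0.185). For that list edgeR had 1 gene higher at an unadjusted p under 0.05 (12.3% over all genes) and DESeq2 called 0. Of 10 inhibitors of TLR signaling 1 rose, Tnip3, an A20-binding protein, at 1546 ± 164 and 2084 ± 133 normalized counts (log2 fold change 0.43, SE 0.09, adjusted p = 0.0203). Of that list the lowest value was -0.10 for Nfkbia (adjusted p = 0.340) and the highest was 0.64 for the low-count Sarm1 (19.7 and 30.4 normalized counts, adjusted p = 0.305), and DESeq2 called 1 higher and 0 lower. The call of the kinase list was lost with any 1 library other than Pdcd1f/f replicate 1 left out, and that of the inhibitor list without Pdcd1f/f replicate 2 or 3 or Pdcd1f/fLysMcre replicate 1 or 2. The single calls of the TLR and IL-1 receptor lists were kept as counts of at least 1 in all 6.

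**Figure D5:**
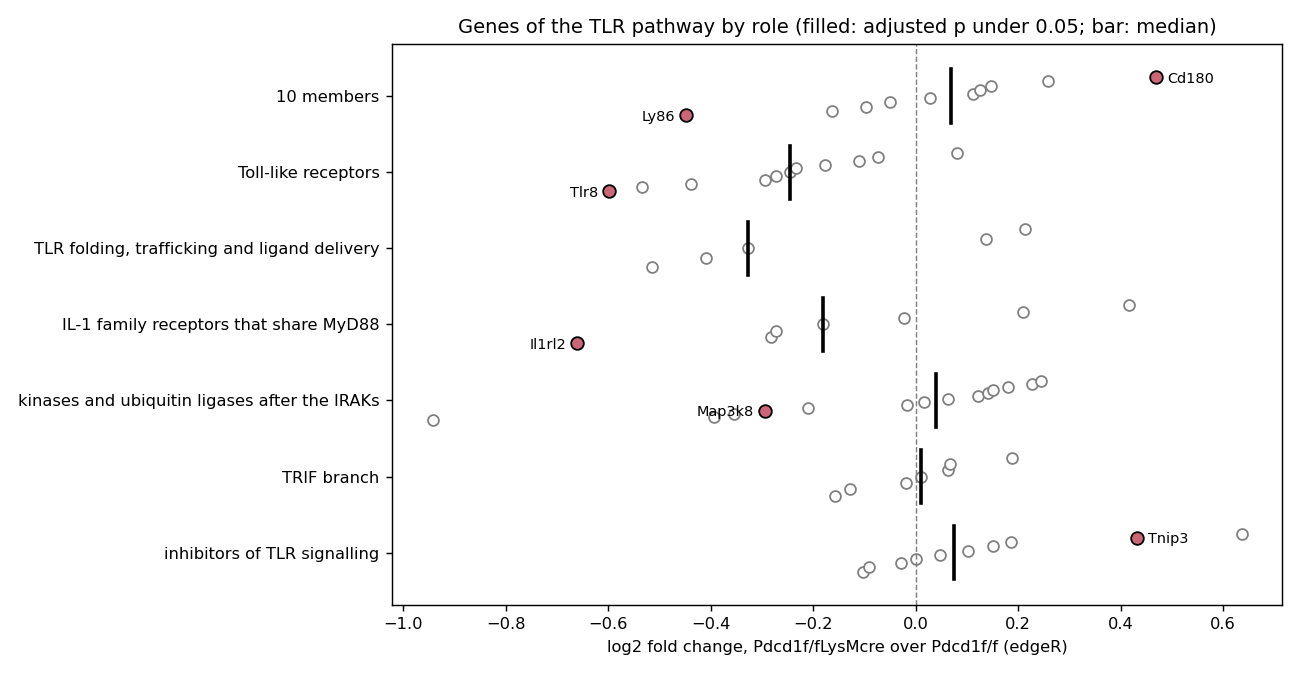
Log2 fold change (x axis, Pdcd1f/fLysMcre over Pdcd1f/f) of each tested gene of the 10 coreceptor and adaptor genes and of 6 lists of pathway genes (rows). Filled points passed an adjusted p of 0.05 and are named, and the bar is the median of the row, from -0.33 for the folding list to 0.07 for the 10 genes and for the inhibitors.

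Neutrophil markers summed to 6517 to 6659 normalized counts in Pdcd1f/f TAMs, against 5418 to 5546 in Pdcd1f/fLysMcre TAMs, with Csf3r (means 2412 and 1694) and Mmp8 (2317 and 1659) lower and Ly6g at 0 to 3 counts. S100a8 (1253 and 1472) and S100a9 (575 and 626) in the same list had higher means in Pdcd1f/fLysMcre TAMs and did not pass the test. T and NK cell markers had at most 11 counts in a library and none was tested. Dendritic cell markers summed to 221 to 300.1 and 285 to 359 normalized counts, and none passed the test. Among them Flt3 (means 46.6 and 74.8, edgeR adjusted p = 0.137) was higher in every Pdcd1f/fLysMcre library. Zbtb46 (50.5 and 81.0, edgeR adjusted p = 0.120) overlapped between the genotypes, as did Ccr7 (169 and 173). Endothelial markers summed to 1869 to 1988 and 1519 to 1643, where Pecam1 was lower (means 1082 and 702, adjusted p = 0.0034) and Cdh5 (169 and 168) and Kdr (691 and 698) did not pass. Stromal and tumor markers summed to 1499 to 1659 and 1234 to 1669, where Col1a2 was lower (132 and 65.6, adjusted p = 0.0121) and the other 4 did not pass. The part of these cells in the values of the 10 genes was not tested.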

How the data were processed

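RNA-seq of TAMs from 3 Pdcd1f/f and 3 Pdcd1f/fLysMcre libraries was analysed. Whole-number counts for each Ensembl gene were deposited by the authors, who made them from stranded polyA libraries with paired-end reads by Cutadapt (2.5), STAR (2.7.3a, GRCm38) and featureCounts (Subread 1.6.2), and a normalized signal table of 16552 genes, which holds the counts divided by 1 DESeq2 size factor per library. All columns of sample values were used (0 unused). Normalized counts in the text are the deposited signal.

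The raw counts were tested with edgeR (4.0.16, R 4.3.3; filterByExpr with a minimum count of 10 and minimum total of 15, TMM, robust glmQLFit, two-sided glmQLFTest) and Benjamini-Hochberg adjustment over 14469 genes, with a threshold of 0.05. Intervals are at 95%, from the moderated degrees of freedom. Symbols, positions, exon lengths and GC content came from GENCODE release M21 on GRCm38, which paired 14461 tested IDs with a symbol, and the authors counted against a later Ensembl release. The scripts were tested on simulated data. The 10 genes, the pathway lists and the marker lists were chosen with earlier results of these data known.

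Named genes were all 10 members, the genes past the threshold and the highest and lowest log2 fold change of each list, label checks, and the 3 most alike profiles (log2 CPM, prior count 2) of each changed member. Some genes that this rule or the marker lists hold are not reported here. Tlr4, the marker genes given with values and the genes that overlap members were named for a result they bear on. Alternatives were RLE size factors, library size alone, a filter of at least 1 count in any library or 10 in every library, DESeq2 (1.42.0) with Benjamini-Hochberg or Storey adjustment, limma-trend (limma 3.58.1) on log2(normalized count + 1), a replicate block, loess offsets on GC content and length (span 0.5) with and without the block, the length used per kb, and each library left out. Leaving out both libraries with the opposite GC trend was added after seeing the data.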

Additional observations from a re-analysis of the deposited data

How the results depend on the processing

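Cd180 and Ly86 kept their direction in all 17 alternatives, and Ly86 its call. The fits that corrected for GC content and length, or left out the libraries of opposite GC trend, moved most results, and the cause was not tested. Over all genes, 786 calls became 1951 with at least 1 count in any library, 1598 with DESeq2, 1950 with DESeq2 and Storey q-values, 2672 with GC and length offsets, 2731 with these and the replicate block, 3757 without both libraries of opposite GC trend, and 222 to 3181 with 1 library left out (3181 without Pdcd1f/f replicate 1). The number of the 10 genes past the threshold, 2, became 5 with GC and length offsets with or without the replicate block, 5 without both libraries, and 1 to 4 with 1 library left out.

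With GC and length offsets, and with the replicate block added, the log2 fold changes that came past the threshold were 0.22 and 0.22 for Cd14, 0.20 and 0.20 for Irak2, and 0.28 and 0.28 for Irak3. Irak3 was also past it at 0.26 with DESeq2 under both adjustments and at 0.25 without both libraries. Without both libraries Myd88 was past it at -0.18 and Irak4 at -0.21, and Ly96 turned to 0.0061. With GC and length offsets Myd88 was at -0.07 and Irak4 at -0.09, and neither passed. With 1 library left out, log2 fold changes ranged from 0.41 to 0.55 for Cd180, -0.23 to -0.12 for Myd88, 0.23 to 0.28 for Irak3 and -0.15 to 0.060 for Ly96.

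The counts of calls in the lists stand beside shares of all genes that moved as well. These shares were 5.43% in the report, 5.58% with library size alone, 7.1% with the replicate block and 7.32% with at least 1 count. They were 13.1% with DESeq2, 13.5% with Storey q-values, 18.5% with offsets and 18.9% with offsets and the block. Without both libraries the share was 26.2%, and with 1 library left out 1.51% to 21.6%. Calls in the TLR list, 1 in the report, were 3 with library size alone and with the replicate block, 4 with DESeq2, 5 with at least 1 count, with Storey q-values and without both libraries, 8 with offsets (also with the block) and 1 to 4 with 1 library left out. In the folding list, 0 became 1 with library size alone, DESeq2, Storey q-values and the replicate block, 3 with at least 1 count, with offsets and without both libraries, 2 with offsets and the block, and 0 to 3 with 1 library left out. In the IL-1 receptor list, 1 became 2 with at least 1 count and with DESeq2 or Storey q-values, 3 with offsets (also with the block), 4 without both libraries and 1 to 3 with 1 library left out. In the kinase list, 1 became 4 with at least 1 count, DESeq2, Storey q-values and offsets (also with the block), 7 without both libraries and 0 to 6 with 1 library left out. The TRIF list had 1 with offsets (also with the block) and 2 without both libraries, and the inhibitor list 4 with offsets (also with the block), 3 without both libraries and 0 to 1 with 1 library left out. By longest transcript, Cd180 was in place 2 and Myd88 in place 3.

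Replicate numbers did not pair the libraries (correlations of deviations -0.013, -0.097 and 0.220), and only replicate 3 correlated best with its own number. The replicate block gave 1027 calls over all genes and the same 2 of the 10 genes, Cd180 and Ly86. With 3 libraries a group no exact permutation p can go below 0.1.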
